A study of Homo sapiens with 20 samples.

Results

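Extracellular NAMPT (eNAMPT) was the treatment examined here, as a single effect estimated over cells with and without PDGF-BB. The members were the 10 libraries whose titles name NAMPT or NAMPT+PDGF-BB, set against the 10 titled ctrl or PDGF-BB, so that all 20 libraries of the series entered one 10 versus 10 comparison. The cells were an immortalized human pericyte line of wild-type genotype, CL 05008-CLTH from Celther, grown with fetal bovine serum. The ctrl group received neither protein, the NAMPT group recombinant human eNAMPT at 500 ng/mL, the PDGF-BB group recombinant human PDGF-BB at 20 ng/mL, and the NAMPT+PDGF-BB group both, each for 4 hours. Each group held 5 libraries that the titles call biological replicates. Because all groups came from 1 line, the p-values describe the spread between these cultures. The main test estimates that spread largely over many genes together. The question asked of the pooled comparison was which smaller eNAMPT effects become measurable with 10 libraries on each side that the 2 comparisons of 5 against 5 do not call.

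NAMPT is the rate-limiting enzyme of NAD salvage inside cells, and its secreted form is described as a cytokine-like protein that can engage TLR4. TLR4 and the receptors of TNF and IL-1 act through the transcription factor NF-kB, which is made of dimers of NFKB1, NFKB2, RELA, RELB and REL. Inhibitor proteins such as IkB-alpha hold NF-kB in the cytoplasm, and active NF-kB induces chemokines, cytokines, adhesion molecules and its own inhibitors and subunits. Pericytes are the mural cells of small vessels. They depend on PDGF-BB, which signals through PDGFRB, and can recruit leukocytes through chemokines.

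Gene counts ranged from 2894878 to 4011066 per library. Over 5 library measures (gene counts, mitochondrial share, ERCC spike-in share, genes detected and scaling factor) the smallest Benjamini-Hochberg adjusted p for eNAMPT was 0.818 (exact permutation test by sign flips of the 10 pair differences, two-sided). The 4 libraries numbered replicate 5 had the fewest genes detected, 16360 to 16444, close below the other 16 at 16462 to 17355. Of 12 pericyte markers, 11 averaged at least 1 CPM (counts scaled to 1000000 per library), with PDGFRB at 104 to 156 CPM, and DES averaged 0.561 CPM, with up to 1.89 CPM in a library. Fibroblast markers were high as well, with a summed level of 3919 to 5254 CPM with eNAMPT and 3997 to 5302 CPM without, most of it from the collagen genes COL1A1 and COL1A2. The leukocyte genes LYZ and TYROBP were at 0 in every library, and the leukocyte list summed to 4.27 to 10.5 CPM with eNAMPT and 3.94 to 11.5 CPM without. Endothelial markers summed to 5.45 to 13.3 CPM with eNAMPT and 6.83 to 14.7 CPM without. Epithelial markers summed to 137 to 257 CPM with eNAMPT and 156 to 237 CPM without, mostly from KRT18, at a mean of 178 CPM. EPCAM and CDH1 of that list averaged 0.531 and 0.0930 CPM. Neural and glial markers summed to 15.0 to 36.7 CPM with eNAMPT and 17.1 to 37.9 CPM without, mostly from MBP. No marker of these lists passed the pooled test. In such bulk libraries, more RNA per cell and more cells of a kind cannot be told apart.

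eNAMPT raised a set of genes that includes chemokines, NF-kB inhibitors, NF-kB subunits and cytokines, and lowered none that passed. Of 12111 genes tested, 27 (0.223%) were higher and 0 lower at an adjusted p under 0.05 (edgeR quasi-likelihood, with PDGF-BB and replicate number as terms). The neutrophil chemokine gene CXCL1 had the largest effect, 3.31-fold, and the growth arrest and DNA damage gene GADD45A the smallest, 1.15-fold. At an unadjusted p under 0.05 there were 633 genes (5.23%), 340 higher and 293 lower, against 605.55 expected if no gene differed. DESeq2 also called 0 genes lower, and limma-voom called 1, NR2F2. In the same kind of model, the comparison without PDGF-BB called 21 genes (0.173%), 18 higher and 3 lower, and the comparison with PDGF-BB called 15 (0.124%), 13 higher and 2 lower. The median standard error of a log2 fold change was 0.11 in the pooled comparison and 0.15 in each single one. The smallest log2 effect called was 0.21 in the pooled comparison, 0.22 without PDGF-BB and 0.27 with it.

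Of the 27 genes, 8 also passed in both single comparisons: CXCL8, CCL2, NFKBIA, IER3, CXCL1, PTX3, BIRC3 and CXCL3. Another 8 passed without PDGF-BB and not with it (VCAM1, TNFAIP3, EGR1, JUNB, IRF1, SOD2, CXCL6 and CLDN1), and 5 passed with PDGF-BB and not without it (NFKBIZ, IL1B, CXCL2, INHBA and GADD45A). The remaining 6, EDN1, NFKB1, RELB, PPIF, NFE2L2 and IL6, passed in neither, which is 0.0495% of the genes tested. This set depends on how the single comparisons are fitted. They shared the spread of all 20 libraries, and when each was fitted on its own 10 libraries it called 21 genes higher and 4 lower without PDGF-BB and 19 higher and 6 lower with it. EDN1 then passed in both (adjusted p 0.0418 and 0.0235, edgeR quasi-likelihood) and NFKB1 with PDGF-BB (0.0251), while RELB, PPIF, NFE2L2 and IL6 again passed in neither. In those fits IL6 fell under the count filter without PDGF-BB and CXCL6 under it in both states, so they were not tested there. DESeq2 on all 20 libraries called NFKB1 with PDGF-BB (0.0369) and none of the other 5 in either state. The 8 genes shared by the single comparisons were 38.1% of the calls without PDGF-BB and 53.3% of those with it. All 27 had a log2 fold change above 0 in both PDGF-BB states, and in 18 of them the larger value was the one without PDGF-BB. They were chosen by their pooled effect in these same libraries, which favours values on the same side of 0 in both states. The plot of the 2 effects places the 6 pooled calls near the diagonal, among uncalled genes of like size.

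**Figure D1:**
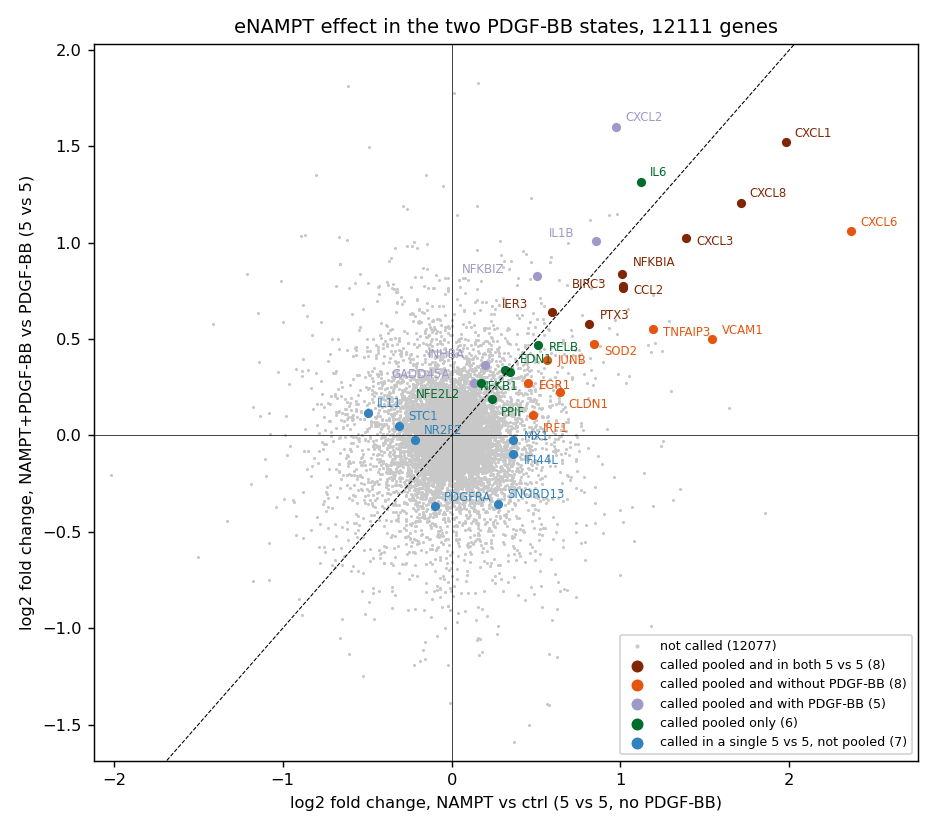
Each point is 1 of 12111 genes, with the log2 fold change for eNAMPT without PDGF-BB (5 versus 5) on the x axis and with PDGF-BB (5 versus 5) on the y axis. Colours give the comparisons in which a gene was called at an adjusted p under 0.05, and the dashed line marks equal effects. All 27 pooled calls lie above 0 on both axes, which their choice by the pooled effect in the same libraries favours.

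Upstream sequence is shown for 4 of the called genes because NF-kB is the factor that many of them share in textbook accounts. RefSeq windows (GRCh38.p14) of 250 bases before the transcript start held an entry for 23 of the 27 genes. CCL2, GADD45A, IER3 and RELB had none. The kappa-B consensus, the 10-base NF-kB motif, was searched on both strands, with overlapping matches allowed and each gene counted once. It was found for 14 of the 23 genes (60.9%), against 11.8% of the 27305 genes with an entry. Those 27305 include genes not tested here, so the shares in this paragraph are over unlike sets of genes. Some genes have several windows, and counted by window the share was 48.4% (15 of 31) against 9.96% of 35116. The AP-1 motif TGANTCA, searched in the same way, was found for 1 of 23 (4.35%), CXCL8, against 8.06%. Among the genes that passed in neither single comparison, 2 of 5 with an entry held a kappa-B match (NFKB1 and IL6), against 12 of 18 of the other called genes. A match is a description of letters, and no match says only that these letters are not in this window. Capitals mark the kappa-B match in NFKBIA (chr14:35404750-35404999, minus strand, first base at -81 from the start), NFKB1 (chr4:102501109-102501358, plus strand, -49) and IL6 (chr7:22726950-22727199, plus strand, -73). NFKB1 has a further window, at chr4:102501684-102501933, with no match. PPIF (chr10:79347219-79347468, plus strand) holds none and is shown for contrast.
NFKBIA: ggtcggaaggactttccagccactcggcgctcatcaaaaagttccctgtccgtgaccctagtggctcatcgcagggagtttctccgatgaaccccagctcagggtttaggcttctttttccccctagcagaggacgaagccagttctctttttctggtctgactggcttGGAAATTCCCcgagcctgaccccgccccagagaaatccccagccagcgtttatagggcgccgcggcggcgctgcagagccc
NFKB1: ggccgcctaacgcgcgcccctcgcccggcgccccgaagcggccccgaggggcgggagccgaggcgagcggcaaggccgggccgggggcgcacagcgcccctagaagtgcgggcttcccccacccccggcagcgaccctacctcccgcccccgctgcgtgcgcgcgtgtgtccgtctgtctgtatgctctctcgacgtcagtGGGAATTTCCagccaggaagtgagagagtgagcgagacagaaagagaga
IL6: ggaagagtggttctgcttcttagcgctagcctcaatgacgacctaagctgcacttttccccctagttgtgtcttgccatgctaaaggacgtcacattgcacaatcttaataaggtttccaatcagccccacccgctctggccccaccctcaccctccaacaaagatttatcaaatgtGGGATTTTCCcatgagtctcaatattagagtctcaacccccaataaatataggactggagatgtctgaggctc
PPIF: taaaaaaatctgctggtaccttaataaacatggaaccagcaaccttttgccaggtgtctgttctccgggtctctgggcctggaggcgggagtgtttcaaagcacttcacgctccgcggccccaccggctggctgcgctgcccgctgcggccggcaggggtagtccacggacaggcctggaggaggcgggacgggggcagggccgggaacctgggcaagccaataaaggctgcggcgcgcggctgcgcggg

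Of 5 NF-kB subunit genes, NFKB1 and RELB rose in the pooled comparison, against 0.223% of all genes. Neither passed a single comparison in the model of all 20 libraries. NFKB1 did pass with PDGF-BB in the own-library fit and with DESeq2. NFKB1 encodes p105, the precursor of the p50 subunit (ENSG00000109320, GRCh38 chromosome 4, 102501329 to 102617302, plus strand). It stood at 50.5, 50.7, 55.8, 51.3 and 68.6 CPM in ctrl replicates 1 to 5 and at 60.9, 73.2, 66.8, 68.2 and 74.1 CPM with eNAMPT. In the PDGF-BB group it stood at 82.1, 91.6, 92.1, 83.2 and 102 CPM, and with both proteins at 118, 99.9, 119, 104 and 130.1 CPM. In each PDGF-BB state 1 untreated library, replicate 5, reached into the range of the treated ones, so the groups overlapped, while every treated library exceeded the untreated library of its own number. The pooled log2 fold change was 0.33 (SE 0.06, adjusted p 0.000533, edgeR quasi-likelihood), a 1.25-fold rise. It was 0.31 without PDGF-BB (adjusted p 0.278) and 0.34 with it (adjusted p 0.0876).

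RELB encodes the subunit of the non-canonical NF-kB pathway (ENSG00000104856, chromosome 19, 45001430 to 45038198, plus strand). Its levels were 27.5, 22.3, 22.7, 21.6 and 18.1 CPM in ctrl and 37.6, 32.7, 27.8, 27.7 and 34.3 CPM with eNAMPT. All 5 eNAMPT libraries lay above all 5 ctrl libraries, as did those of 48 genes (0.396%) in that comparison. With PDGF-BB alone RELB stood at 34.8, 48.0, 47.8, 32.6 and 32.6 CPM, and with both proteins at 63.2, 43.6, 60.5, 60.8 and 43.7 CPM. Here the groups overlapped and replicate 2 was lower with eNAMPT. The pooled log2 fold change was 0.49 (SE 0.10, adjusted p 0.000648, edgeR quasi-likelihood) or 1.40-fold, with 0.51 (adjusted p 0.164) and 0.47 (adjusted p 0.173) in the single comparisons. Of the other 3 subunits, REL had a pooled log2 fold change of 0.43 (adjusted p 0.929), NFKB2 of 0.22 (0.929) and RELA of -0.07 (0.997).

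EDN1, the gene of the vasoconstrictor peptide endothelin-1 (ENSG00000078401, chromosome 6, 12290363 to 12297194, plus strand), had the smallest pooled p of the 6. It stood at 66.7, 65.6, 80.1, 74.0 and 117 CPM in ctrl and at 90.8, 79.0, 97.8, 101 and 141 CPM with eNAMPT. With PDGF-BB it stood at 69.1, 68.9, 90.2, 137 and 146 CPM, and with both proteins at 82.4, 103, 114, 166 and 167 CPM. Replicate 5 was the highest in every group, and the groups overlapped in both states. All 10 pairs of libraries with the same number and PDGF-BB state were higher with eNAMPT, by 0.19 to 0.58 on the log2 scale. The pooled log2 fold change was 0.34 (SE 0.06, adjusted p 0.000166, edgeR quasi-likelihood), or 1.26-fold, and the single comparisons gave 0.35 (adjusted p 0.0819) and 0.33 (adjusted p 0.0991). Without the replicate term the log2 fold change was 0.33 and the adjusted p 0.999.

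IL6, the gene of the inflammatory cytokine interleukin 6 (ENSG00000136244, chromosome 7, 22725884 to 22732002, plus strand), showed the largest effect of the 6 on the fewest reads. It stood at 1.53, 0.323, 0.985, 1.6 and 2.05 CPM in ctrl, a mean of 4.2 counts per library, and at 2.66, 3.49, 3.27, 1.28 and 4.24 CPM with eNAMPT. With PDGF-BB it stood at 2.36, 3.45, 4.05, 2.48 and 4.03 CPM, and with both proteins at 10.5, 11.1, 9.43, 5.18 and 4.93 CPM. All 5 libraries with both proteins lay above all 5 with PDGF-BB alone, as did those of 39 genes (0.322%), whereas NAMPT replicate 4 fell within the ctrl range. The pooled log2 fold change was 1.24 (SE 0.30, adjusted p 0.0342, edgeR quasi-likelihood), or 2.37-fold, against 1.12 (adjusted p 0.892) and 1.32 (adjusted p 0.292) singly.

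NFE2L2 encodes NRF2, the transcription factor of the antioxidant response (ENSG00000116044, chromosome 2, 177227595 to 177392697, minus strand). Its levels were 110.2, 138, 123, 127 and 108 CPM in ctrl and 135, 158, 123, 128 and 140.4 CPM with eNAMPT. They were 121, 127.5, 126, 124 and 115 CPM with PDGF-BB and 155, 166, 153, 149 and 120.3 CPM with both proteins. The pairs without PDGF-BB numbered 3 and 4 hardly differed, and with PDGF-BB replicate 5 was the 1 treated library inside the untreated range. The pooled log2 fold change was 0.22 (SE 0.05, adjusted p 0.0208, edgeR quasi-likelihood), or 1.17-fold, against 0.17 (adjusted p 0.885) and 0.27 (adjusted p 0.173) singly.

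PPIF encodes cyclophilin D, a regulator of the mitochondrial permeability transition pore (ENSG00000108179, chromosome 10, 79347469 to 79355337, plus strand). It stood at 196, 146, 186, 185 and 150.5 CPM in ctrl and at 174, 212, 223, 195 and 216 CPM with eNAMPT. With PDGF-BB it stood at 229, 239, 285, 274 and 243 CPM, and with both proteins at 236, 294, 314, 326 and 274 CPM. The groups overlapped in both states, and in replicate 1 without PDGF-BB the eNAMPT library was the lower one. The pooled log2 fold change was 0.21 (SE 0.05, adjusted p 0.00581, edgeR quasi-likelihood), or 1.16-fold, against 0.24 (adjusted p 0.167) and 0.19 (adjusted p 0.608) singly.

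**Figure D2:**
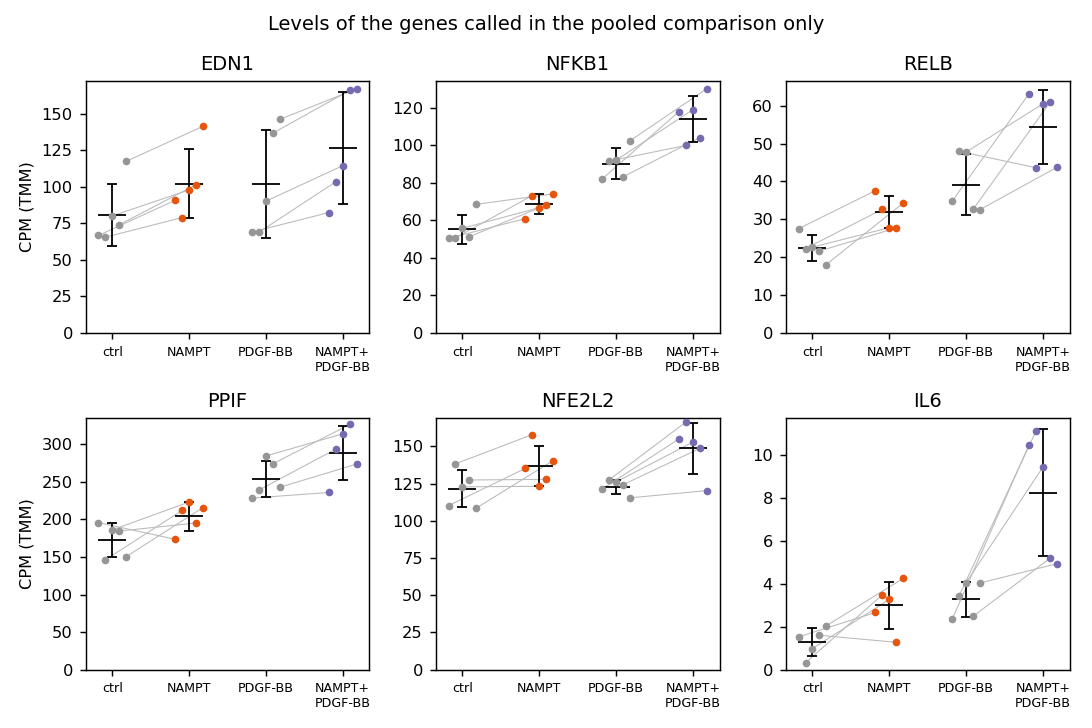
CPM after TMM scaling (y axis, from 0) of the 6 genes called in the pooled comparison and in neither single one, in the 4 groups of 5 libraries. Grey lines join libraries of the same replicate number within a PDGF-BB state, and bars give the mean and SD. NFKB1, EDN1 and NFE2L2 are higher with eNAMPT in 10 of 10 joined pairs, and RELB, PPIF and IL6 in 9. Their choice by the pooled effect in the same libraries favours such counts.

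The 6 calls differed in how firmly they held. EDN1, NFKB1 and RELB passed in all 20 fits that left out 1 library. PPIF did not pass without ctrl replicate 2 (adjusted p 0.0551) or NAMPT replicate 5 (0.0592). NFE2L2 did not pass without ctrl replicate 1 (0.0717), NAMPT replicate 2 (0.0532) or 5 (0.130), PDGF-BB replicate 2 (0.114), or NAMPT+PDGF-BB replicate 1 (0.105), 2 (0.0594) or 3 (0.0794). IL6 passed in 6 of the 20 fits, those without ctrl replicate 1, 4 or 5, NAMPT replicate 1 or 4, or NAMPT+PDGF-BB replicate 5, and in the other 14 its adjusted p was 0.0521 to 0.171. The average of both single contrasts gave 0.0678 for IL6. Without the replicate term RELB, NFKB1 and IL6 passed, whereas EDN1, PPIF (adjusted p 0.529) and NFE2L2 (0.405) did not. With libraries scaled by their spike-in counts in place of TMM none of the 6 passed, with adjusted p of 0.426 for IL6 and 0.997 for the other 5, while each log2 fold change stayed above 0, the lowest being 0.15 for PPIF and NFE2L2. Leaving out all 4 libraries of a replicate number kept 22 to 24 of the 27 pooled calls. Without number 1, SOD2 (adjusted p 0.148, edgeR quasi-likelihood), NFE2L2, GADD45A, CXCL6 and IL6 did not pass, and without number 2, PPIF, NFE2L2, CXCL6, IL6 and CLDN1 did not. Without number 3, CXCL6, IL6 and CLDN1 were lost, without number 4, GADD45A, CXCL6 and CLDN1, and without number 5, PPIF, NFE2L2 and GADD45A.

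Among the chemokine genes, whose products draw neutrophils and monocytes, 6 of 10 tested rose in the pooled comparison, against 0.223% of all genes. CXCL1 ranged from 10.1 to 30.7 CPM without eNAMPT (median 16.4) and from 41.4 to 74.6 CPM with it (median 57.5). No library with eNAMPT was as low as any without it, whatever the PDGF-BB state. Over all genes, 6 (0.0495%) separated within both states. The pooled log2 fold change of CXCL1 was 1.72 (SE 0.10, adjusted p 3.55e-32, edgeR quasi-likelihood). CXCL8 rose by 1.40 (SE 0.06), the monocyte chemokine CCL2 by 0.88 (SE 0.04) and CXCL3 by 1.16 (SE 0.18).

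CXCL2 and CXCL6 are chemokine genes of few reads, each called in 1 of the 2 single comparisons. CXCL2 stood at 1.86 to 4.59 CPM without eNAMPT (median 3.80) and at 3.19 to 13.7 CPM with it (median 8.84), a pooled log2 fold change of 1.32 (SE 0.24, adjusted p 0.000222, edgeR quasi-likelihood). CXCL6 stood at 0.323 to 2.70 CPM without eNAMPT (median 1.25) and at 1.59 to 6.5 CPM with it (median 3.99), a change of 1.58 (SE 0.36, adjusted p 0.0133). The ranges overlapped for both genes over the 2 PDGF-BB states together, and within each state all 5 pairs were higher with eNAMPT. CXCL6 did not pass without ctrl replicate 2 (0.0566), 3 (0.0705) or 4 (0.0611), NAMPT replicate 4 (0.0651) or 5 (0.0818), or NAMPT+PDGF-BB replicate 2 (0.111), under spike-in scaling (0.102), or with limma-voom (0.0509). CXCL1, CXCL2 and CXCL3 are close paralogs, and how reads shared by them were counted is not given in the sources used here. The 4 tested chemokine genes that did not pass, CXCL5, CCL5, CXCL12 and CXCL16, had pooled log2 fold changes of 0.34, 0.16, 0.05 and 0.06.

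Of the NF-kB inhibitors, 3 of 9 tested rose, against 0.223% of all genes. NFKBIA, the gene of IkB-alpha, lay at 114 to 153 CPM in the 10 libraries without eNAMPT (median 136) and at 225 to 279 CPM in the 10 with it (median 258). The ranges did not meet in either state, nor across states, and the pooled log2 fold change was 0.93 (SE 0.05, adjusted p 2.51e-38, edgeR quasi-likelihood). NFKBIZ, the gene of the nuclear regulator IkB-zeta, lay at 16.6 to 34.8 CPM without eNAMPT and at 37.3 to 52.3 CPM with it. It too did not overlap in either state, although the comparison without PDGF-BB did not call it (log2 fold change 0.51, adjusted p 0.149), and its pooled value was 0.67 (SE 0.10, adjusted p 5.74e-07). In all, 6 genes (0.0495%) separated in this way in both states, and all 6 were among the 27. TNFAIP3, the gene of the deubiquitinase A20, rose by 0.83 (SE 0.12, adjusted p 4.4e-07, edgeR quasi-likelihood), and TNIP1, which binds A20, had 0.23 (adjusted p 0.201).

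Cytokine and adhesion genes were sparser. IL1B rose from 1.87 to 14.0 CPM without eNAMPT to 7.01 to 31.4 CPM with it, ranges that overlapped, by 0.95 on the log2 scale (SE 0.17, adjusted p 0.000111, edgeR quasi-likelihood). With IL6 it made 2 of 6 tested cytokines that rose, against 0.223% of all genes. LIF, a cytokine of the IL-6 family, had 0.37 (adjusted p 0.10). VCAM1, an adhesion molecule for leukocytes, was the 1 of 5 tested adhesion genes that rose, by 0.93 (SE 0.11, adjusted p 1.12e-11). This average covers unequal effects, of 1.54 without PDGF-BB and 0.50 with it, which are taken up with the other differences between states. ICAM1, the other main inducible adhesion molecule in the list, had 0.50 (adjusted p 0.211).

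Among the remaining called genes of these lists, BIRC3, an inhibitor of apoptosis that acts at TNF receptors, rose by 0.88 (SE 0.12). It was the 1 of 19 tested receptor adaptors and cIAPs that rose, against 0.223% of all genes. Its relative BIRC2 had 0.18 (adjusted p 0.107, edgeR quasi-likelihood). PTX3, a soluble pattern recognition protein, rose by 0.68 (SE 0.06), and SOD2, the mitochondrial superoxide dismutase, by 0.64 (SE 0.14, adjusted p 0.00574). Neither SOD2 (adjusted p 0.0502) nor IRF1 (0.529) passed without the replicate term. IRF1, an interferon regulatory factor, was the 1 of 27 interferon-induced genes that rose, by 0.29 (SE 0.06, adjusted p 0.000796). That list had a median of 0.05, with 0.13 without PDGF-BB and -0.01 with it. IRF1 itself had 0.48 without PDGF-BB (adjusted p 1.2e-05, edgeR quasi-likelihood) and 0.10 with it (0.955). The difference between its 2 effects did not pass (-0.38, adjusted p 0.409), and the pooled value averages unequal estimates.

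Of 21 tested immediate early genes, which cells switch on within minutes of a stimulus, 3 rose (0.223% of all genes did) and the other 18 did not pass. IER3 was the most abundant called gene by CPM and rose by 0.62 (SE 0.03), with nearly equal effects of 0.60 and 0.64 in the 2 states. The transcription factor genes EGR1 and JUNB rose by 0.35 (SE 0.05) and 0.47 (SE 0.08). EGR1 lay at 56.9 to 70.7 CPM in ctrl and at 73.7 to 108 CPM with eNAMPT, without overlap, a separation seen in 48 genes (0.396%). With PDGF-BB it lay at 172 to 252 CPM and with both proteins at 223 to 283 CPM, where the ranges overlapped and all 5 pairs were higher. FOS had -0.19 (adjusted p 0.997, edgeR quasi-likelihood) and JUN 0.01 (0.997). IER3 was also the 1 of 19 tested ERK output and feedback genes that rose, in a list with a median of -0.01.

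Of the called genes outside these lists, INHBA, which encodes the activin A subunit, rose by 0.29 (SE 0.06, adjusted p 0.00038, edgeR quasi-likelihood). The stress gene GADD45A rose by 0.21 (SE 0.05, adjusted p 0.0148), and the tight junction gene CLDN1 by 0.41 (SE 0.10, adjusted p 0.0289). GADD45A passed in 13 of 20 fits that left out 1 library. The 7 losses were without ctrl replicate 2 or 4, NAMPT replicate 1 or 5, PDGF-BB replicate 1 or 5, or NAMPT+PDGF-BB replicate 4, at adjusted p of 0.0535 to 0.232. CLDN1 passed in 8, those without NAMPT, PDGF-BB or NAMPT+PDGF-BB replicate 1, PDGF-BB or NAMPT+PDGF-BB replicate 3, PDGF-BB replicate 4, or ctrl or NAMPT+PDGF-BB replicate 5. In the other 12 its adjusted p was 0.0556 to 0.155. Without the replicate term INHBA (adjusted p 0.444), GADD45A (0.986) and CLDN1 (0.536) did not pass, and DESeq2 gave 0.135 for GADD45A and 0.0523 for CLDN1, for which limma-voom gave 0.0702. Under spike-in scaling EGR1, JUNB, INHBA, IRF1, SOD2, GADD45A and CLDN1 did not pass either, at adjusted p of 0.671 for SOD2, 0.901 for JUNB and 0.997 for the others.

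Across the 27 genes, 18 were higher with eNAMPT in 10 of 10 pairs and 9 in 9 of 10. The 27 were chosen by their pooled effect in these same pairs, which favours differences on the same side of 0. These counts are therefore a description. Over all genes tested, 33 (0.272%) were higher in 10 of 10 pairs. The 9 were VCAM1, TNFAIP3, INHBA, RELB, IRF1, PPIF, GADD45A, CLDN1 and IL6.

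**Figure D3:**
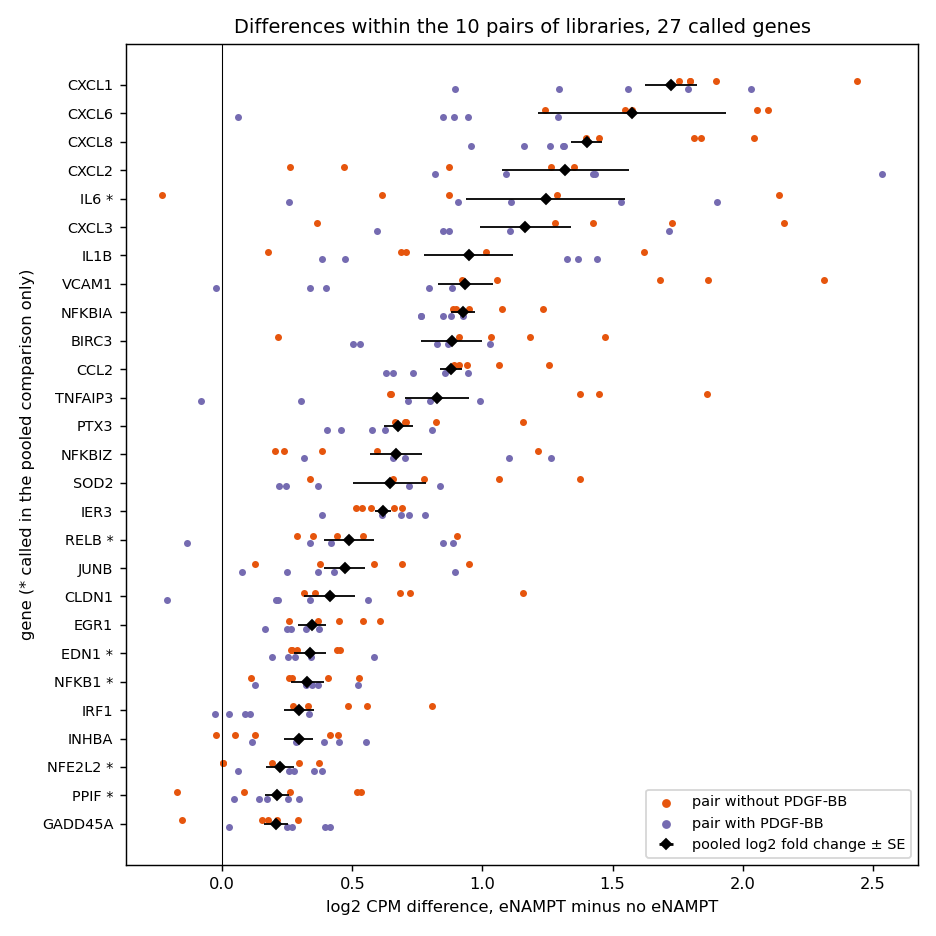
For each of the 27 called genes (y axis), the 10 differences in log2 CPM (x axis) between the eNAMPT library and the library without it of the same replicate number and PDGF-BB state are shown as points, and the pooled log2 fold change with its standard error as a diamond. Orange points are pairs without PDGF-BB and purple points pairs with it. In VCAM1, all 5 orange points lie to the right of every purple point, while in IER3 and EDN1 the colours mix.

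Most of the NF-kB and inflammatory genes tested had a pooled value above 0, those that passed included. The 8 lists of NF-kB inhibitors and subunits, chemokines, cytokines, adhesion molecules, receptor adaptors, innate effectors and genes of inflammatory mRNA decay held 88 genes. Of these, 69 were tested, 17 rose and 0 fell. The 1 gene of the mRNA decay list that rose was NFKBIZ, which is also in the inhibitor list. Of all 12111 tested genes, 27 (0.223%) rose and 0 fell. Of the 69, 57 (82.6%) had a pooled log2 fold change above 0, with a median of 0.17, while 6051 of all 12111 tested genes were above 0, with a median of -0.000129. The lists were chosen with earlier results of these data known, so this count is a description. The medians were 1.02 for chemokines, 0.33 for subunits, 0.30 for adhesion molecules, 0.28 for cytokines, 0.23 for inhibitors, 0.10 for the mRNA decay list, 0.09 for innate effectors and 0.08 for receptor adaptors. Spike-in scaling brought the all-gene median to -0.07 and that of the 69 to 0.10.

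**Figure D4:**
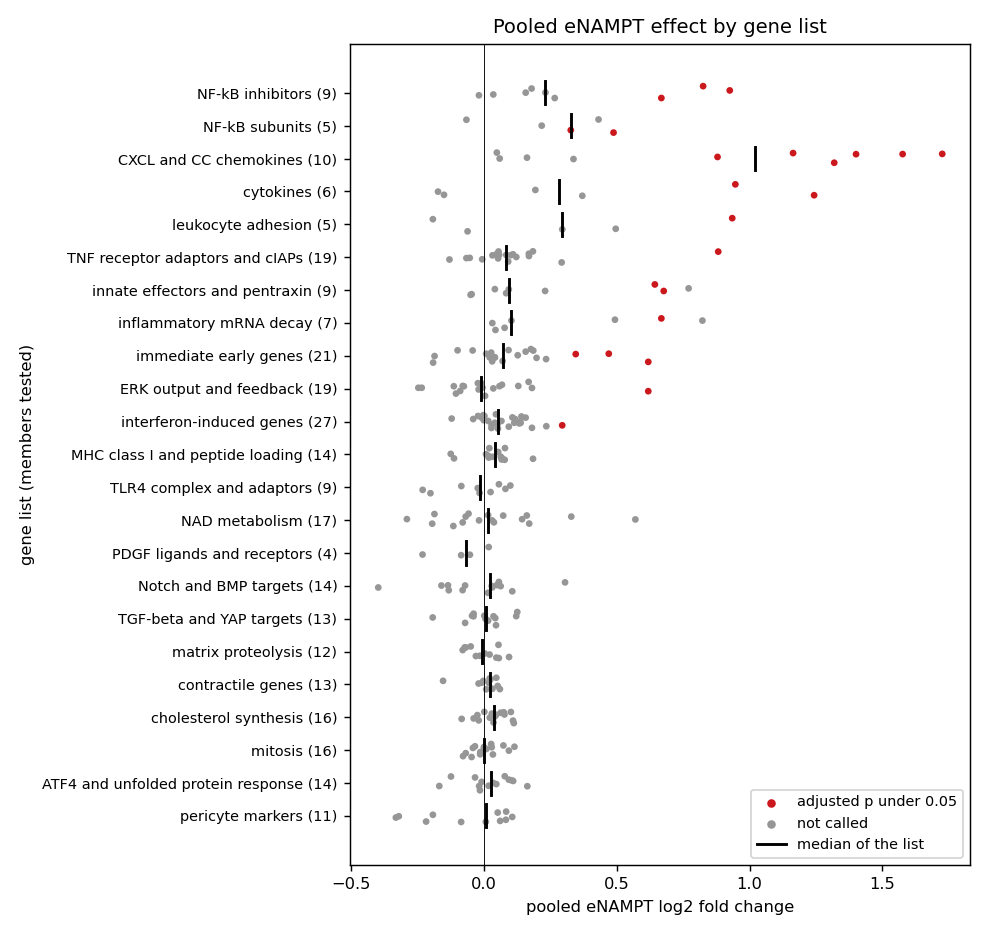
Pooled log2 fold change (x axis) of every tested member of 23 gene lists (y axis, number tested in brackets), in red where the adjusted p was under 0.05, with a black bar at the median of each list. Red points lie in the 11 lists from NF-kB inhibitors to interferon-induced genes, and the medians of the lists below them lie near 0.

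In the other 12 lists 0 genes passed in either direction with the quasi-likelihood test, and 0 to 2 per list had an unadjusted p under 0.05. Limma-voom called 1, the YAP target CYR61, and DESeq2 called 0. CYR61 also passed the quasi-likelihood test without ctrl replicate 5 or NAMPT replicate 4. The TLR4 complex and its adaptors had a median of -0.02 over 9 tested genes. TLR4 itself lay at 27.9 to 41.7 CPM without eNAMPT and at 23.4 to 36.0 CPM with it. Its pooled value was -0.23 on the log2 scale, with an adjusted p of 0.870 (SE 0.10, edgeR quasi-likelihood). The NAD metabolism list had a median of 0.02 over 17 genes. NAMPT, whose protein the cells were given, had 0.04 (SE 0.07, 95% interval -0.09 to 0.17), and -0.02 under spike-in scaling. Medians were 0.02 for Notch and BMP targets, 0.01 for TGF-beta and YAP targets, -0.01 for matrix proteolysis, 0.02 for contractile genes, 0.04 for cholesterol synthesis, 0.00036 for mitosis, 0.03 for ATF4 and unfolded protein response genes, 0.04 for MHC class I, -0.07 for PDGF ligands and receptors and 0.01 for pericyte markers. All of the lists in this paragraph had at least 1 member on each side of 0.

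Of the 5 genes with the smallest p that did not pass, ZC3H12A, LIMD2 and IL7R had values above 0 and NR2F2 and PDGFRA below, and of these ZC3H12A alone belongs to an inflammatory list. ZC3H12A, which encodes the RNase regnase-1 that degrades inflammatory mRNAs, had a pooled log2 fold change of 0.82 (SE 0.21, adjusted p 0.0519, edgeR quasi-likelihood). It passed with DESeq2 (0.0425), without a filter on low counts (0.0323), with the average of both single contrasts (0.0353), and without ctrl replicate 1, PDGF-BB replicate 3 or 4, or NAMPT+PDGF-BB replicate 1, 3 or 4 (0.00917 to 0.0406). Its relative ZC3H12C had 0.49 (adjusted p 0.10) and was higher in 10 of 10 pairs, and passed without NAMPT replicate 1 (0.0413). The kinase IRAK2, which acts below TLR4 and the IL-1 receptor, had 0.77 (adjusted p 0.165), also higher in 10 of 10 pairs. LIMD2 had 0.50 (adjusted p 0.0613) and passed with DESeq2 (0.0336) and without ctrl or NAMPT replicate 4 or NAMPT+PDGF-BB replicate 5 (0.0246 to 0.0359). IL7R, the interleukin 7 receptor gene, had 0.18 (adjusted p 0.0952) and passed without ctrl replicate 1 (0.0232) or NAMPT replicate 1 (0.0151). LIF passed with limma-voom (0.0307) and without ctrl replicate 3 (0.00992) or 5 (0.0380), BIRC2 without NAMPT replicate 2 (0.0249) or PDGF-BB replicate 2 (0.0132).

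On the lower side the smallest pooled p belonged to NR2F2 and PDGFRA. NR2F2, the gene of the nuclear receptor COUP-TFII, lay at 960 to 1163 CPM without eNAMPT (median 1035) and at 857 to 1186 CPM with it (median 951). Its pooled log2 fold change was -0.12 (SE 0.03, adjusted p 0.0879, edgeR quasi-likelihood), with -0.22 without PDGF-BB (adjusted p 0.00108) and -0.02 with it (0.980). It passed with limma-voom (0.0394) and without NAMPT+PDGF-BB replicate 4 (0.00382) or PDGF-BB replicate 5 (0.0243). PDGFRA, the gene of PDGF receptor alpha, lay at 84.1 to 132 CPM without eNAMPT and at 68.8 to 105 CPM with it. It was lower in 9 of 10 pairs. Its pooled value was -0.23 (SE 0.06, adjusted p 0.0952), with -0.10 without PDGF-BB (adjusted p 0.993) and -0.37 with it (0.0300), and it passed without NAMPT replicate 1 (0.0131). PDGFRB, the gene of PDGF receptor beta, had -0.09 (SE 0.05, adjusted p 0.997).

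In all, 7 genes passed in 1 single comparison and not in the pooled one. Beside NR2F2 and PDGFRA, these were the antiviral genes MX1 and IFI44L, higher without PDGF-BB (both 0.36) and near 0 with it (-0.03 and -0.09), and the cytokine gene IL11 and the hormone gene STC1, lower without PDGF-BB (-0.50 and -0.31) and at 0.12 and 0.05 with it. The last was the small nucleolar RNA gene SNORD13, lower with PDGF-BB (-0.35) and at 0.28 without it. MX1 passed the pooled test without NAMPT+PDGF-BB replicate 2 (adjusted p 0.0427, edgeR quasi-likelihood).

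The difference between the 2 effects was tested directly, since an average describes a gene only where both effects are alike. Over all genes 7 (0.0578%) passed, 1 with a larger value with PDGF-BB and 6 with a smaller one. Of the 27 pooled calls, 2 were among them. At an unadjusted p under 0.05 for the difference (edgeR quasi-likelihood) there were 8 of the 27, and 662 of all 12111 genes. VCAM1 went from 7.75 to 21.7 CPM in ctrl to 37.5 to 50.4 CPM with eNAMPT, and from 31.3 to 47.5 CPM with PDGF-BB to 46.8 to 73.8 CPM with both proteins. Its groups did not overlap without PDGF-BB, as in 48 genes (0.396%), and overlapped with it. The difference between its 2 effects was -1.05 (SE 0.20, adjusted p 0.00200, edgeR quasi-likelihood). CXCL8 had a difference of -0.50 (SE 0.12, adjusted p 0.0451), between effects of 1.71 and 1.21. It passed in 8 of 20 fits that left out 1 library, those without ctrl or NAMPT replicate 1, ctrl or PDGF-BB replicate 2, ctrl or NAMPT replicate 3, or NAMPT or NAMPT+PDGF-BB replicate 4, and had an adjusted p of 0.0540 to 0.370 in the other 12. Without the replicate term neither difference passed (adjusted p 0.523 for VCAM1 and 0.999 for CXCL8), nor did either under spike-in scaling (0.135 and 0.959), and DESeq2 gave 0.874 and limma-voom 0.113 for CXCL8. For the 6 genes that passed in neither single comparison the difference was -0.05 to 0.20, with adjusted p of 0.968 to 0.994. The way these 6 were chosen favours like effects in both states, so these values do not test whether their effects are alike. For IL6 the standard error of the difference was 0.69.

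**Figure D5:**
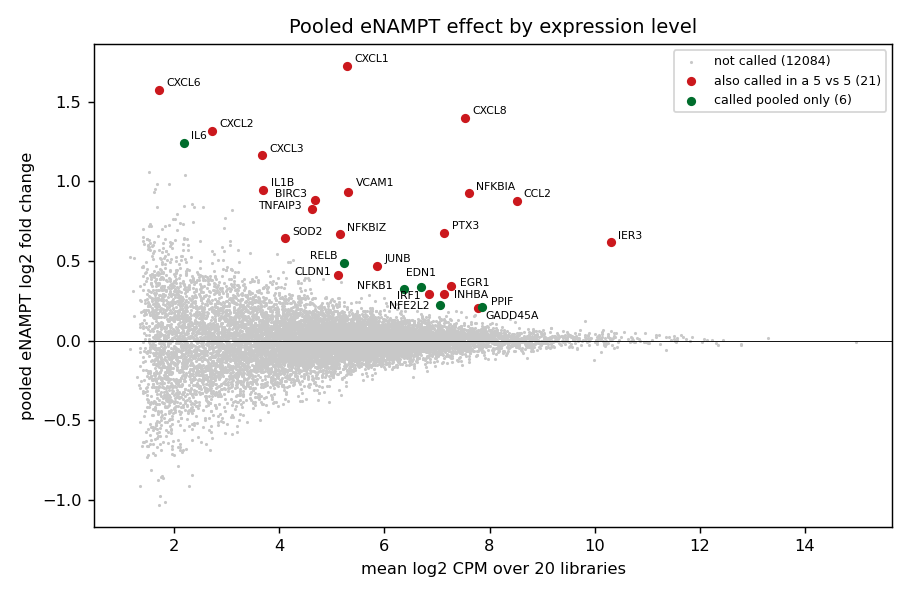
Pooled log2 fold change (y axis) against mean log2 CPM over the 20 libraries (x axis) for 12111 genes. Called genes are labelled, in green for the 6 that passed in neither single comparison and in red for the other 21. The called genes with small effects, such as PPIF, GADD45A and NFE2L2, lie among well-counted genes, and the sparse genes called, CXCL6, IL6 and CXCL2, have effects above 1.2.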

How the data were processed

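The 20 libraries were sequenced from RNA extracted with the SPLIT RNA Extraction Kit (Lexogen), per the labels' protocols. Per the submitters' processing notes, the authors worked on GRCh38 with STAR 2.6.1a, featureCounts 1.6.4, FastQC 0.11.7 and DESeq2 1.18.1. The deposited values are raw gene counts, and the same deposited table holds the authors' adjusted p-values. The counting's strand setting is not given in the sources used here, so antisense reads cannot be told apart.

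The 92 ERCC and 7 SIRV transcripts were removed. edgeR 4.0.16 (R 4.3.3) filtered genes with filterByExpr and scaled by TMM. It fitted a quasi-likelihood model with replicate number, PDGF-BB and eNAMPT as terms (13 residual degrees of freedom). The spread of each gene was moderated by that of the other genes, with a median of 121 prior degrees of freedom. The p-values thus rest largely on a spread shared between genes. The single comparisons and their difference came from 4 group means plus replicate number in all 20 libraries. P-values were two-sided and Benjamini-Hochberg adjusted over 12111 genes, with 0.05 as threshold. Standard errors are the log2 fold change over the square root of F. CPM are counts scaled to 1000000 per library after TMM. Pair differences used log2 CPM with a prior count of 2. All 58676 identifiers matched GENCODE 29 on GRCh38.

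Alternatives were no replicate term, DESeq2 1.42.0, limma-voom (limma 3.58.1), RLE and spike-in scaling, other filters and thresholds, the average of both contrasts, the other deposited count table and leaving out libraries. The edgeR 3 form of the test was added after seeing the data. Scripts were tested on simulated data. Members and lists were chosen with earlier results of these data known. Named genes had a mean log2 CPM of at least 1 and were all genes called in the pooled and neither single comparison, the 12 smallest p among other pooled calls, up to 3 smallest p per list, the 5 smallest p of the difference, the 5 smallest p not passing, genes passing a single comparison but not the pooled one, and NAMPT, PDGFRB, PDGFRA and TLR4. CXCL2, CXCL6, INHBA, GADD45A and CLDN1, named to account for every call, and other list members given as examples were chosen after their values were seen.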

Additional observations from a re-analysis of the deposited data

Results flagged for a closer look

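Among 212 groups of 5 libraries, over the genes described and the library measures, 11 held a value far from the other 4 by Dixon's criterion, and chance gives about 1 in 20. The high values were CCL2 at 226 CPM and EDN1 at 117 CPM in ctrl replicate 5, and PTX3 at 159 CPM and the growth factor gene HBEGF at 153 CPM in NAMPT replicate 5. The low values were CXCL1 at 41.4 CPM and TNFAIP3 at 16.3 CPM in NAMPT replicate 4, EGR1 at 56.9 CPM in ctrl replicate 1 and IL1B at 1.87 CPM in ctrl replicate 4. Of the library measures, NAMPT replicate 4 had a low mitochondrial share of 8.38%, and PDGF-BB replicate 5 had a high spike-in share of 1.90% and a low number of genes detected, 16430.

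The eNAMPT effect differed between cells with and without PDGF-BB for 7 genes (edgeR quasi-likelihood, effect with minus effect without, log2). The differences were -0.63 for SNORD13 (adjusted p 0.000150), 0.62 for IL11 (0.000968), -1.05 for VCAM1 (0.00200), -0.56 for the small Cajal body RNA gene SCARNA22 (0.0111), -0.59 for FAM53C (0.0449), -0.31 for the minor spliceosome RNA gene RNU4ATAC (0.0449) and -0.50 for CXCL8 (0.0451). SNORD13 and VCAM1 passed in all 20 fits that left out 1 library, and VCAM1 did not without the 4 libraries numbered 3 (0.0609). IL11 did not pass without ctrl replicate 3 (0.0594) or without the 4 libraries numbered 3 (0.802). SCARNA22 passed in 15 of 20, FAM53C in 7, RNU4ATAC in 6 and CXCL8 in 8. None of the 7 passed without the replicate term or under spike-in scaling. With DESeq2 VCAM1 alone passed. The DESeq2 adjusted p was 0.335 for SNORD13, 0.724 for IL11 and 0.737 for SCARNA22. It was 0.0943 for FAM53C, 0.977 for RNU4ATAC and 0.874 for CXCL8.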

How the results depend on the processing

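Of 49 genes described, 41 kept direction and side of the threshold without the replicate block, 45 with DESeq2, 45 with limma-voom, 34 under spike-in scaling, and all 49 with RLE, the other count table or the edgeR 3 test. Pooled higher calls numbered 13 under spike-in scaling and 16 at an absolute log2 fold change of at least 0.5, and 1 gene was lower with limma-voom. Without the replicate block the pooled comparison called 19 genes, the comparison without PDGF-BB 9 higher and 0 lower, that with PDGF-BB 7 and 0, and the difference 0 and 0. Under spike-in scaling these were 9 and 0, 2 and 0, and 0 and 0. DESeq2 gave 1 lower without PDGF-BB, 1 lower with it, and 0 higher and 1 lower for the difference. The difference had 3 higher with no filter and 3 lower in the other count table. Genes called in the pooled comparison alone numbered 8 without the block (3 of the 6 shared), 7 with DESeq2 (5), 9 with limma-voom (6), 4 under spike-in scaling (0) and 5 with own-library fits (4). Spike-in scaling moved list medians to -0.057 for Notch and BMP targets, -0.065 for TGF-beta and YAP targets, -0.050 for contractile genes, -0.037 for cholesterol synthesis, -0.070 for mitosis, -0.052 for ATF4 targets and 0.10 for the NF-kB and inflammatory lists, and NAMPT to -0.024. The cause was not tested.

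Leaving out 1 library or 1 replicate number gave 21 to 30 pooled higher and 0 to 1 lower calls, 13 to 21 and 0 to 5 without PDGF-BB, 7 to 15 and 0 to 3 with it, 0 to 3 and 2 to 8 for the difference, and 3 to 12 genes called in the pooled comparison alone. The pooled SNORD13 value (-0.03) ranged from -0.088 to 0.032. It was above 0 without PDGF-BB replicate 1 (0.0039), NAMPT+PDGF-BB replicate 2 (0.0065) or 3 (0.032), or replicate number 3 (0.019).

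The titles do not say what libraries of the same replicate number share between groups. Same-numbered libraries deviated from their group means more alike than others did, though only weakly. Deviations of same-numbered libraries correlated at a median of 0.0901, from 0.00138 to 0.176 (30 pairs, 12 over 0.1). For other numbers the median was -0.0257 and the highest value 0.114. At 2894878 to 4011066 counts per library, genes such as IL6 and CXCL6 rest on few reads.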

Other observations

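In the authors' deposited table, 8 of the genes tested here were called for NAMPT against control and 9 for NAMPT with PDGF-BB against PDGF-BB alone. Of the 27 genes called in the pooled comparison, 15 were called in neither comparison of the authors' deposited table.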
